A study of Mus musculus with 16 samples.

Results

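The response of the mouse retina to optic nerve crush was measured under treatment with GNE-3511, a small molecule inhibitor of dual leucine zipper kinase (DLK). The comparison set 5 libraries from crushed eyes against 5 from uncrushed eyes of inhibitor-treated mice, which are 10 of the 16 retinal poly(A) RNA libraries of the series. Libraries were placed by the eye and drug in their titles, and every gene of the files was a member, 36528 in all, of which 19391 passed the filter on low counts and were tested. Both groups carried the same drug: GNE-3511 at 75 mg/kg, given 60 h and 68 h after the crush, with retinas taken at day 3. The uncrushed group therefore shows drug-exposed retina without nerve injury. The other 6 libraries came from mice given the vehicle, named MCT in the labels, 3 crushed and 3 uncrushed. They entered the estimate of the spread between libraries and are otherwise used only where the responses are set side by side. The labels state 5 mice for each drug, do not tie a retina to an animal, and give no strain, age or sex. Replicate numbers below only name libraries, and since separate animals are not stated for them, the spread behind each p-value may be technical.

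Retinal ganglion cells are the output neurons of the eye, and a crush of the optic nerve cuts their axons. The cells then switch on injury genes, and many die over the following weeks. DLK, encoded by Map3k12, is a kinase that carries the signal of axon damage to the cell body through JNK kinases and transcription factors of the AP-1 and related families, and is known to drive both the death and the growth programme of injured ganglion cells. Around these neurons, Müller glia and astrocytes become reactive, in part through cytokines of the gp130 receptor family and STAT3, and microglia, the resident immune cells, multiply and change state.

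The 10 libraries held 32.2 to 44.75 M counted reads, and 2.021% to 3.047% of them came from mitochondrial genes. The rod transducin gene Gnat1 stood at 5450 to 5960 nRPKM in uncrushed and 5160 to 5430 in crushed libraries; nRPKM is the submitters' RPKM, a read count scaled by gene length and depth, adjusted with a size factor per library. The gene of the drug target, Map3k12, stood at 39 to 42.7 nRPKM in uncrushed and 37.3 to 40.2 in crushed libraries and was not called (log2 change -0.04 ± 0.06, SE, edgeR adjusted p = 0.894). On the first principal component, with 35.6% of the variance of 2000 genes, the crushed libraries lay at -26.4 to -11.1 and the uncrushed at 6.99 to 28. On the second, with 14.9%, crushed replicate 5 had the lowest score, -29.3, and the remaining 9 libraries lay between -10.9 and 16.3.

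Transcripts of neighbouring eye tissues set some libraries apart. Krt5, a keratin of the basal layer of surface epithelia, stood at 0.152, 0, 0.0711, 0.32 and 0.234 nRPKM in uncrushed replicates 1 to 5 and at 0.532, 0.496, 6.14, 0.012 and 14.3 in crushed replicates 1 to 5. Aldh3a1, an abundant enzyme of the corneal epithelium, stood at 0.583, 0.564, 7.8, 0.0492 and 6.82 in the crushed libraries and at 0.112 to 0.536 in the uncrushed. Crushed replicates 3 and 5 were high in both genes, and crushed replicate 4 was among the lowest of all 10 libraries. These genes passed the test (Krt5 log2 change 4.84 ± 1.10, adjusted p = 0.0118; Krt15 4.60 ± 1.11, 0.0176; Krt13 4.61 ± 1.14, 0.0204; Aldh3a1 3.44 ± 0.86, 0.022), but without crushed replicates 3 and 5 the log2 change of Krt5 was 1.21 (adjusted p = 0.577), that of Krt15 0.96 (0.6) and that of Aldh3a1 0.47 (0.819). Leaving out crushed replicate 5 alone ended the calls of Krt13, Krt15 and Aldh3a1, leaving out uncrushed replicate 2 or 3 did the same, and Krt15 also lost its call without uncrushed replicate 4 and Aldh3a1 without crushed replicate 3 (adjusted p up to 0.107). Without uncrushed replicates 3 and 5 none of these 4 was called (adjusted p of 0.081 to 0.131).

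Lens transcripts went the other way. Cryaa, the lens chaperone alpha-A crystallin, stood at 4.47, 45, 165, 13.9 and 232 nRPKM in uncrushed and 3.68, 1.86, 6.78, 0.878 and 6.78 in crushed replicates 1 to 5. Crybb2, a structural beta crystallin, stood at 2.84, 19.7, 70.7, 10.7 and 121 in uncrushed and 2.74, 1.36, 4.24, 0.257 and 5.24 in crushed libraries. Their log2 changes were -4.52 ± 1.24 (adjusted p = 0.0401; -2.40 and 0.457 without uncrushed replicates 3 and 5) and -4.0 ± 1.11 (0.0418). Uncrushed replicates 3 and 5 were highest, but uncrushed replicate 1 overlapped with the crushed libraries. Of 16 measured lens genes, 10 were called lower and 0 higher, with a median log2 change of -3.08, and their summed level was 24.1 to 854 CPM (counts scaled by library size) in uncrushed and 5.69 to 37.2 in crushed libraries. None of these calls was left without uncrushed replicates 3 and 5 or crushed replicates 3 and 5, nor without uncrushed replicate 5 or any of crushed replicates 2, 3 and 4 alone, and 1 to 3 were left without crushed replicate 1, crushed replicate 5 or uncrushed replicate 3. In vehicle retinas 0 of the 16 were called by edgeR and 1 by DESeq2, with 8 at an unadjusted p under 0.05. Several counts below are therefore also given without crushed replicates 3 and 5, uncrushed replicates 3 and 5, or all 4. Whether carry-over of these tissues had a part in other results was not tested. The plot of keratin-group and lens genes shows both patterns.

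**Figure D1:**
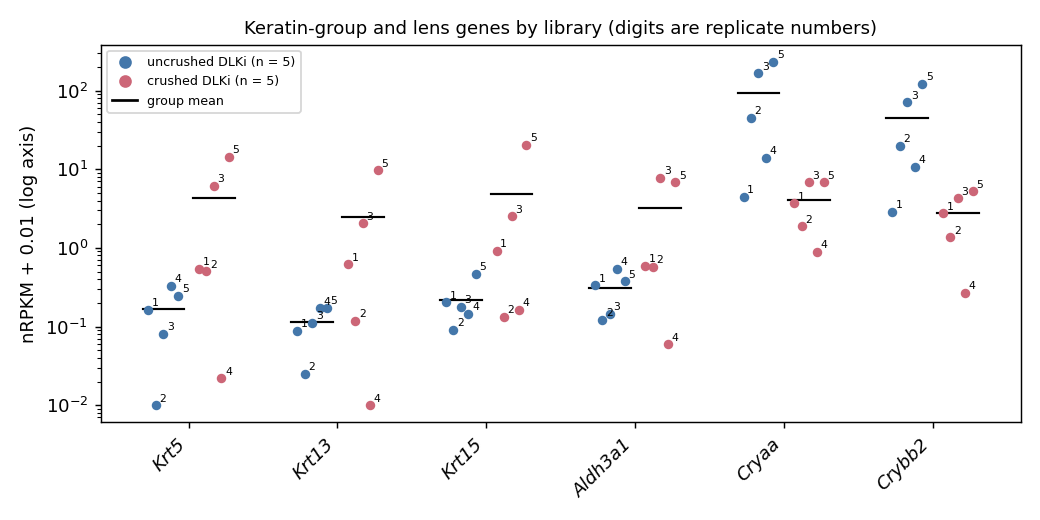
nRPKM + 0.01 (log axis) of 4 genes of surface epithelium and 2 lens crystallin genes in each of 5 uncrushed (blue) and 5 crushed (red) inhibitor libraries, with replicate numbers beside the points and arithmetic group means as black bars. Crushed replicates 3 and 5 are high for Krt5 (6.14 and 14.3), and uncrushed replicates 3 and 5 are high for Cryaa (165 and 232).

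Crush changed 1034 genes under the inhibitor, which is 5.33% of those tested. Of these, 638 (3.29%) were higher and 396 (2.04%) lower in crushed retina (edgeR quasi-likelihood test, Benjamini-Hochberg adjusted p of 0.05 or less, which is what called means throughout). The increases were larger: 260 genes rose and 74 fell by at least 2-fold, and 90 rose and 21 fell by at least 4-fold. By at least 8-fold, 31 rose and 8 fell. These counts include the keratin-group and lens genes described above, whose calls depended on a few libraries. Krt5, Krt13, Krt15 and Aldh3a1 are among the 31, and Cryaa and Crybb2 among the 8. All 10 lens genes called lower are among the 74. The fold counts were not repeated without the libraries rich in these transcripts. By level, all 5 crushed libraries lay above all 5 uncrushed ones in nRPKM for 660 genes (3.4%) and below them for 640 (3.3%). The median log2 change over all tested genes was -0.001. Without replicates 3 and 5 of both groups, called the 4 libraries below, 661 genes were called, 480 higher and 181 lower. A test against a change of at most 1.5-fold called 166. The plot of gene lists gives the spread of each group described below. Lists are given as counts and medians, with no test of the list as a whole. Each count of calls stands against 3.29% called higher and 2.04% called lower of all tested genes.

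**Figure D2:**
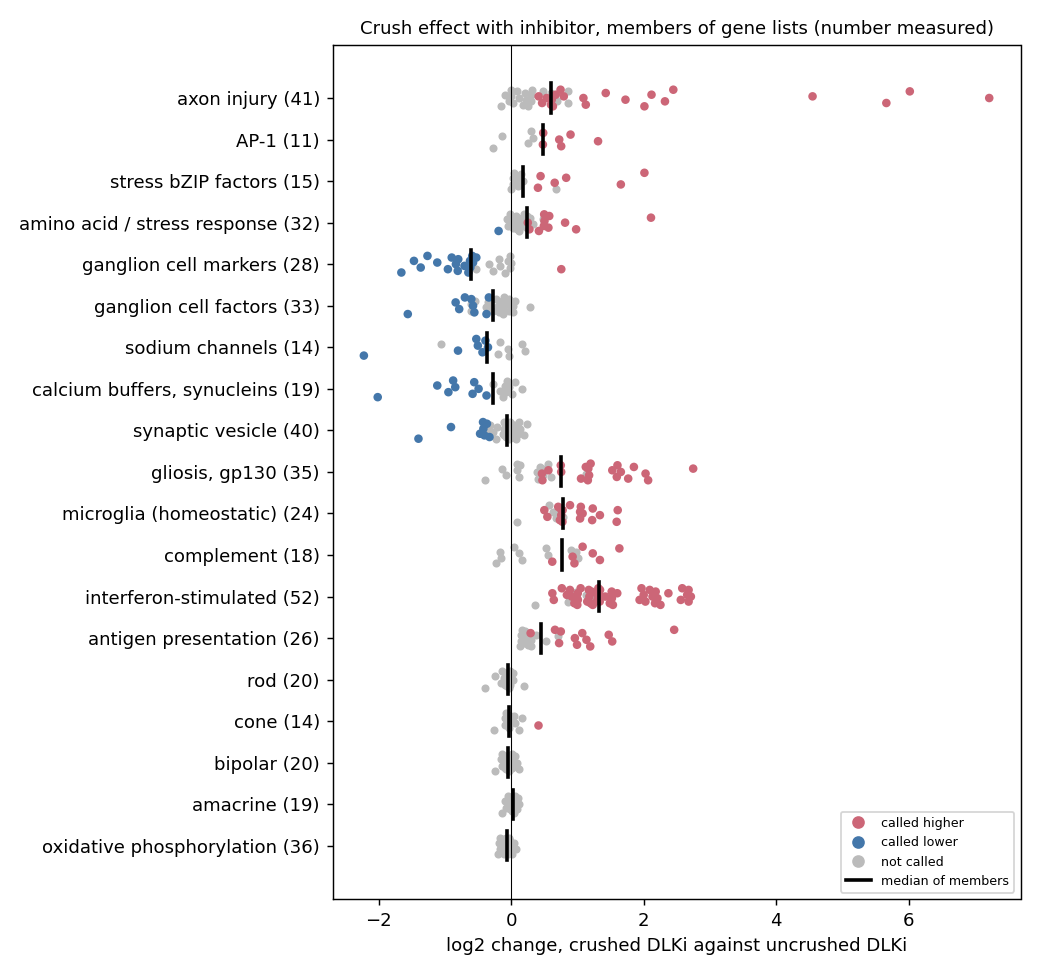
log2 change of crushed against uncrushed inhibitor retina (x axis) for the measured members of 19 gene lists (y axis), red where called higher, blue where called lower and grey where not called, with the median of each list as a black bar. Interferon-stimulated genes have the highest median of the lists drawn (1.32) and ganglion cell markers the lowest (-0.60), while the rod, cone, bipolar and amacrine lists lie around 0.

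Genes known to be switched on in axotomised neurons rose strongly in the retinas of inhibitor-treated mice. Sprr1a, a small proline-rich protein of injured and regenerating neurons (Entrez 20753, chr3:92483954-92485881, GRCm38), stood at 0.065, 0.0502, 0.0845, 0.177 and 0.0341 nRPKM in uncrushed and 15.3, 18.5, 9.84, 9.5 and 11.1 in crushed replicates 1 to 5. All crushed libraries exceeded all uncrushed ones by far, a log2 change of 7.22 ± 0.32 (SE; edgeR adjusted p = 1.85e-10). Ecel1, a neuronal endopeptidase-like protein induced by nerve damage (Entrez 13599, chr1:87142874-87157085), stood at 0.135, 0.194, 0.181, 0.126 and 0.186 in uncrushed and 10.5, 13.4, 10.5, 9.16 and 9.97 in crushed libraries (log2 change 6.02 ± 0.20, adjusted p = 3.14e-12). Mmp12, the macrophage metalloelastase (Entrez 17381, chr9:7344397-7360461), stood at 0.0837, 0.0323, 0.0785, 0.0823 and 0.0952 in uncrushed and 4.04, 4.55, 3.04, 3.67 and 3.28 in crushed libraries (5.66 ± 0.20, 6.09e-12). The groups overlapped for neither gene, and the 5 crushed values of each lay close together. Most uncrushed values of Sprr1a and Mmp12 were under about 0.1 nRPKM and rest on few reads, so the size of their changes is uncertain.

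A second tier rose about 4- to 8-fold. Gal, the neuropeptide galanin, stood at 0.992, 0.823, 1.15, 0.934 and 1.2 nRPKM in uncrushed and 5.74, 9.04, 4.33, 3.75 and 4.78 in crushed libraries, highest in crushed replicate 2 (log2 change 2.45 ± 0.24, edgeR adjusted p = 5.41e-06). Sox11, a transcription factor of developing and regrowing neurons, stood at 0.304, 0.343, 0.255, 0.309 and 0.252 in uncrushed and 1.44, 1.9, 0.883, 1.8 and 1.3 in crushed libraries (2.32 ± 0.18, 2.6e-07). Tnfrsf12a, the TWEAK receptor Fn14, stood at 3.14, 3.31, 3.25, 3.58 and 2.77 in uncrushed and 15.7, 19.8, 9.63, 12.7 and 11.9 in crushed libraries (2.12 ± 0.15, 1.92e-07). No crushed value of these genes fell into the uncrushed range. Avil, which encodes the actin-binding protein advillin, rose by 2.68 ± 0.15 (adjusted p = 3.5e-09), Lad1, a basement membrane linker, by 2.96 ± 0.22 (2.53e-07), Prss12, the neuronal protease neurotrypsin, by 2.33 ± 0.19 (8.03e-07) and Ptgfr, the prostaglandin F receptor, by 2.38 ± 0.38 (0.000675).

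Growth-associated genes rose less. Stmn4, a microtubule-binding stathmin, stood at 5.25, 5.15, 4.73, 5.61 and 4.82 nRPKM in uncrushed and 17.9, 19.3, 11.7, 18.5 and 17.1 in crushed libraries (log2 change 1.73 ± 0.14, edgeR adjusted p = 6.44e-07). Gap43, the growth cone protein, rose by 0.60 ± 0.10 (0.000881) and Tubb6, a beta tubulin, by 0.67 ± 0.12 (0.00143), while Basp1, a growth cone protein related in function to Gap43, stood at 56.3 to 72.9 in uncrushed and 53.5 to 67.1 in crushed libraries and was not called (0.865). Of 41 measured members of the axon injury list, 21 were called higher and 0 lower, against 3.29% and 2.04% of all tested genes, and 38 had a change above 0, with a median of 0.61. Without crushed replicates 3 and 5 the count was 21, without uncrushed replicates 3 and 5 it was 18, and without the 4 libraries 17. Among 26 neuropeptide genes 6 were called higher and 1 lower (0 lower without replicates 3 and 5 of either group). Crh, corticotropin-releasing hormone, rose by 1.09 ± 0.18 (0.000886), and Nts, neurotensin, from 0, 0.0159, 0, 0 and 0 to 0.229, 0.227, 0.105, 0.0421 and 0.113 nRPKM (4.55 ± 0.79, 0.00219), a level that rests on few reads. Calca, which encodes calcitonin and CGRP and sits in the list of ganglion cell subtype genes, rose by 1.22 ± 0.23 (0.0026).

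**Figure D3:**
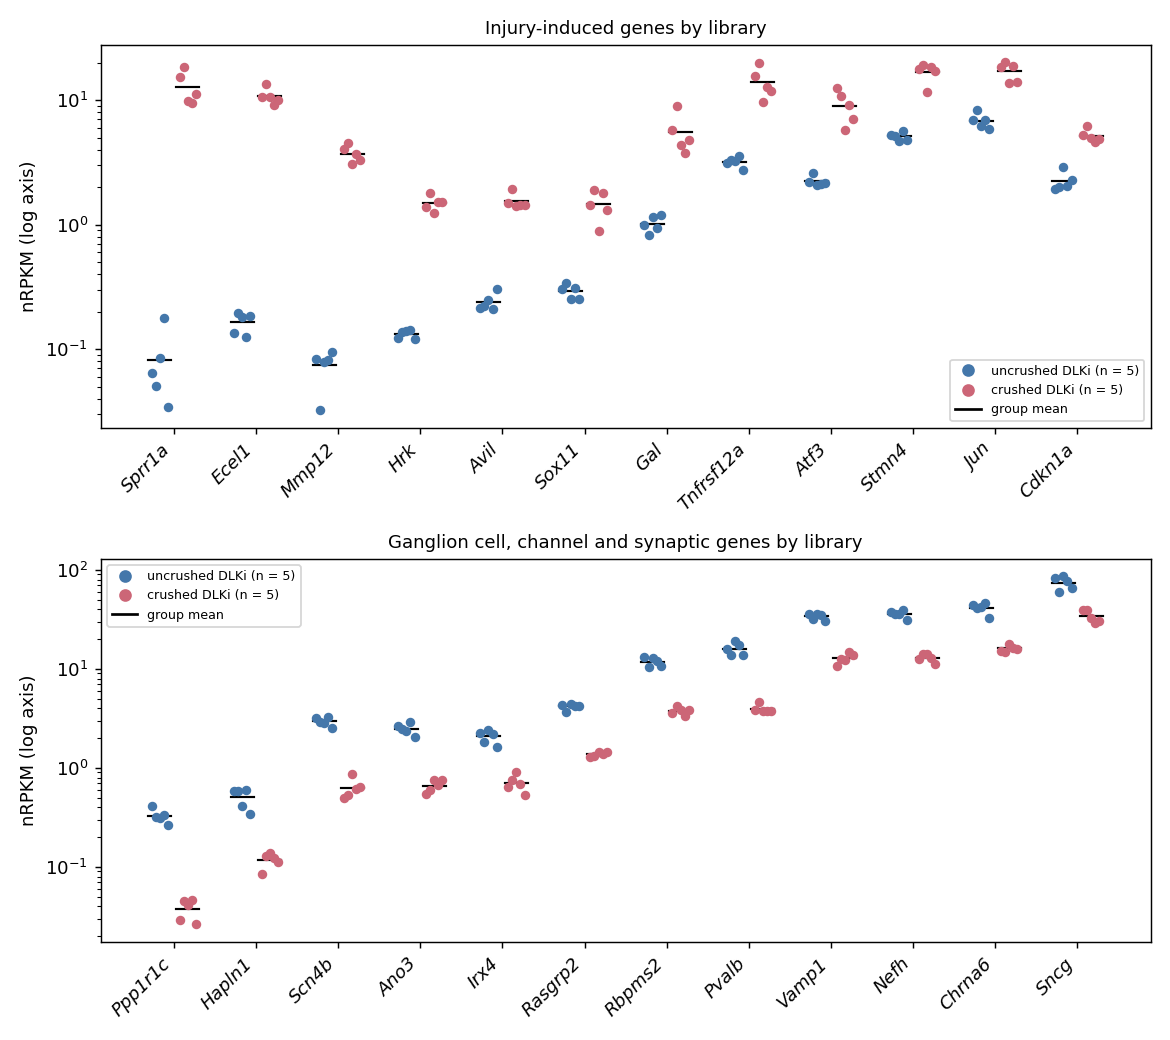
nRPKM (log axis) of 12 injury-induced genes (top) and 12 ganglion cell, channel and synaptic genes (bottom) in each of 5 uncrushed (blue) and 5 crushed (red) inhibitor libraries, with arithmetic group means as black bars. In none of them do the groups overlap: Sprr1a rises from at most 0.177 to at least 9.5, and Nefh falls from at least 31.2 to at most 14.3.

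In the list of DLK and JNK pathway genes, which holds kinases and other pathway members, 3 were called, and transcription factors downstream of JNK rose. Of 16 pathway genes 1 was called higher and 2 lower (median -0.03), against 3.29% and 2.04% of all tested genes. The counts were 0 and 2 without uncrushed replicates 3 and 5, and 0 and 1 without the 4 libraries. The lower ones encode JNK2 and JNK3: Mapk9 stood at 24.1, 25.6, 23.6, 24.1 and 27.5 nRPKM in uncrushed and 18.9, 20.4, 20.9, 22 and 22 in crushed libraries (-0.26 ± 0.05, edgeR adjusted p = 0.00567), and Mapk10 changed by -0.45 ± 0.10 (0.0118; 0.0815 without the 4 libraries). Jun, the AP-1 subunit that JNK phosphorylates, stood at 6.91, 8.39, 6.18, 6.93 and 5.82 nRPKM in uncrushed and 18.4, 20.2, 13.6, 18.8 and 13.9 in crushed replicates 1 to 5 (log2 change 1.31 ± 0.13, edgeR adjusted p = 7.01e-06). Atf3, a stress-induced partner of Jun, stood at 2.22, 2.58, 2.08, 2.11 and 2.15 in uncrushed and 12.4, 10.7, 5.72, 9.11 and 7.02 in crushed libraries (2.01 ± 0.16, 6.44e-07). Crushed replicates 3 and 5 were the lowest of the crushed libraries in both genes and still lay above every uncrushed library. Of 11 measured AP-1 genes 6 were called higher and 0 lower, among them Fosb (0.90 ± 0.14, 0.000453), Maff (0.73 ± 0.16, 0.00976), Mafk (0.49 ± 0.07, 0.000453) and Junb (0.76 ± 0.16, 0.007). The sixth was Fosl2 (0.48 ± 0.13, 0.0309), which lost its call without crushed replicate 1, 3 or 4 or uncrushed replicate 3, 4 or 5 (adjusted p up to 0.0947), and Junb without uncrushed replicates 3 and 5 together (0.0772). Fos, at 12 to 19 and 13.1 to 21.2 nRPKM, overlapped between groups and was not called (0.595), and neither was Jund (0.30 ± 0.09, 0.0729; called higher by DESeq2, with the 10 inhibitor libraries alone and in 2 other settings, adjusted p of 0.0163 to 0.0429), with 52.6% of its exon length under a gene on the opposite strand.

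The motif of AP-1 was looked for in the 250 bases before the start of each gene that has an entry in the RefSeq promoter table (GRCm38.p6; 13643 of the tested genes, a gene counted once over all its listed starts). The letters searched were TGANTCA, on both strands. They were found in 5.79% of these genes, in 12.3% of 478 genes called higher, in 8.77% of 285 called lower and in 6 of 28 axon injury genes. Sprr1a and Mmp12 are shown because they are 2 of the 3 largest increases of that list and hold the motif, which is in capitals; Sprr1a has 2 matches, starting 146 and 116 bases before the start, and Mmp12 has 1, at 44 bases, before a listed start that lies inside the span of the gene given above.
Sprr1a, chr3:92485882-92486131, minus strand: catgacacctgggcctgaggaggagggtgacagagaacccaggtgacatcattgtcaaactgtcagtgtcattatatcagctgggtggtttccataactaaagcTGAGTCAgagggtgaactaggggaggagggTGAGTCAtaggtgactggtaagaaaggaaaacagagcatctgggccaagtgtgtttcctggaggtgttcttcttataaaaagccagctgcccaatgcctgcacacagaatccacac
Mmp12, chr9:7347124-7347373, plus strand: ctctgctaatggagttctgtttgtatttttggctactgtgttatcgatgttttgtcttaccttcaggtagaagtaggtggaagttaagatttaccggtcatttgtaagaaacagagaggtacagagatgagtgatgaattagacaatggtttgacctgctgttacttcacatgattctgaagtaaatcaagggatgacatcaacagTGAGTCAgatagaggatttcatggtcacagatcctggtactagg
A match describes the letters only, and its use by any factor was not measured.

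Stress-response factors of the bZIP family and part of their amino acid programme also rose. All 15 measured bZIP stress factors had a change above 0, and 6 were called higher: besides Atf3, these were Cebpd (1.66 ± 0.20, edgeR adjusted p = 4.07e-05), Cebpa (0.83 ± 0.16, 0.0042), Atf5 (0.66 ± 0.08, 9.83e-05), Crem (0.45 ± 0.06, 0.000235) and Ddit3, which encodes the pro-apoptotic factor CHOP (0.41 ± 0.07, 0.00147). Ddit3 stood at 21.5 to 25.3 nRPKM in uncrushed and 27.6 to 33.4 in crushed libraries, which do not overlap. Atf4, the factor that is controlled mainly through translation, stood at 132 to 164 and 131 to 157 and was not called (0.876). Of 32 genes of the integrated stress response and amino acid supply, 11 were called higher and 1 lower, with a median of 0.24. The largest change in the list was that of Cdsn (2.11 ± 0.18, 1.34e-06), which encodes corneodesmosin and is not an amino acid supply gene. It was followed by the proline synthesis gene Pycr1 (0.98 ± 0.13, 0.00017) and Phgdh, the first enzyme of serine synthesis (0.82 ± 0.14, 0.00168). Aldh18a1, the enzyme at the start of proline synthesis, rose by 0.50 ± 0.08 (0.000461). Cdsn stood at 0.213, 0.272, 0.313, 0.143 and 0.243 nRPKM in uncrushed and 1.07, 1.09, 1.04, 1.1 and 0.852 in crushed libraries, so it was at a low level and nearly even across the crushed retinas. The count of 12 fell to 7 without crushed replicate 1 or uncrushed replicate 2 and to 8 without the 4 libraries with lens or keratin transcripts. The oxidative stress gene Hmox1 (0.92 ± 0.12, 0.000123) and the co-chaperone gene Bag3 (0.62 ± 0.12, 0.00273) were the only members called among 32 heat shock and endoplasmic reticulum chaperone genes. Of all tested genes 5.33% were called, 3.29% higher and 2.04% lower, and the chaperone share is near that.

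Genes of apoptosis moved in few cases. Among all tested genes 3.29% were called higher and 2.04% lower. Hrk, a BH3-only activator of apoptosis in neurons (Entrez 12123, chr5:118169764-118189478), stood at 0.124, 0.137, 0.141, 0.143 and 0.121 nRPKM in uncrushed and 1.39, 1.78, 1.23, 1.51 and 1.53 in crushed libraries. Each crushed library was far above each uncrushed one, a log2 change of 3.47 ± 0.12 (edgeR adjusted p = 3.14e-12). The BH3-only genes Bbc3 (Puma; 0.45 ± 0.12, 0.044) and Bcl2l11 (Bim; 0.38 ± 0.09, 0.02) completed the 3 called of 10, of which 1 call was left without uncrushed replicates 3 and 5. Bbc3 lost its call in 9 of the 10 fits that left out 1 library, all but that without crushed replicate 3 (adjusted p up to 0.115), and Bcl2l11 without crushed replicate 1 or 4 or uncrushed replicate 3 (up to 0.0642). Of 23 BCL2 family and caspase genes, the survival gene Mcl1 rose by 0.28 ± 0.05 (0.00315), and Bcl2, another survival gene (-0.32 ± 0.07, 0.0132), and Bok (-0.52 ± 0.11, 0.0077), an effector of the family, fell. Without the 4 libraries Bok and Bcl2 were not called (adjusted p = 0.115 and 0.182), and Bcl2 was not called without crushed replicates 3 and 5 either (0.125). Cdkn1a, which encodes the cell cycle inhibitor p21 of the p53 pathway, stood at 1.94, 2, 2.92, 2.03 and 2.29 nRPKM in uncrushed and 5.28, 6.14, 4.95, 4.65 and 4.85 in crushed libraries (1.21 ± 0.12, 9.1e-06), again with no overlap. It was 1 of 4 p53 targets called, of 19, and fewer were called without 1 library (1 without crushed replicate 1, 2 without crushed replicate 2 or uncrushed replicate 1 or 4, and 2 without uncrushed replicates 3 and 5 together).

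Ganglion cell transcripts fell. In whole retina, fewer ganglion cells and less RNA per ganglion cell cannot be told apart. Nefh, which encodes the heavy neurofilament chain of thick axons, stood at 37.3, 36.3, 36, 39.1 and 31.2 nRPKM in uncrushed and 12.5, 14.3, 14.1, 12.8 and 11.2 in crushed replicates 1 to 5 (log2 change -1.47 ± 0.13, edgeR adjusted p = 2.57e-06). Rbpms2, an RNA-binding protein of ganglion cells, stood at 13.1, 10.5, 13, 12 and 10.7 in uncrushed and 3.56, 4.2, 3.87, 3.32 and 3.81 in crushed libraries (-1.66 ± 0.13, 4.26e-07). Sncg, gamma-synuclein, stood at 82.5, 59.7, 86.5, 76.9 and 65.3 in uncrushed and 39.5, 39.2, 32.8, 28.8 and 30.7 in crushed libraries (-1.11 ± 0.13, 2.79e-05). The crushed libraries lay below every uncrushed one for all of these. Among all tested genes 2.04% were called lower and 3.29% higher. Of 28 measured ganglion cell markers 17 were called lower, and 27 had a change below 0, with a median of -0.60; the lower calls include Tppp3, a tubulin-binding protein (-1.26 ± 0.13, 9.73e-06), Tubb3 (-0.83 ± 0.15, 0.00164) and Nefl, the light neurofilament subunit (-0.80 ± 0.10, 0.000108), with 32.8% of its exon length under Nefm on the other strand. Without the 4 libraries 12 were called lower. Spp1, osteopontin, which marks alpha ganglion cells and is also made by activated microglia, was the 1 member called higher, at 12.1 to 14.8 and 20.5 to 27.8 nRPKM (0.76 ± 0.09, 5.51e-05). Uchl1, a neuronal ubiquitin hydrolase, was not called (-0.27 ± 0.11, 0.237).

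Of 33 measured transcription factors of ganglion cell identity 9 were called lower and 0 higher, against 2.04% and 3.29% of all tested genes. Their median was -0.27. Irx4, an Iroquois homeobox factor, stood at 2.28, 1.83, 2.44, 2.21 and 1.63 nRPKM in uncrushed and 0.638, 0.757, 0.91, 0.686 and 0.534 in crushed libraries (log2 change -1.56 ± 0.22, edgeR adjusted p = 0.000235). Rxrg, a retinoid receptor, fell by 0.60 ± 0.12 (0.00341). Isl2, a LIM homeobox factor, stood at 2.4, 1.89, 2.24, 2.18 and 1.73 in uncrushed and 1.32, 1.39, 1.46, 1.34 and 1.49 in crushed libraries (-0.57 ± 0.15, 0.0252), a smaller change that lost its call without crushed replicate 1, 2 or 4 or uncrushed replicate 1, 3 or 4 (adjusted p up to 0.0709). Isl1, which bipolar and amacrine cells express as well, overlapped between groups and was not called (-0.13 ± 0.06, 0.283). The count of 9 was 4 without crushed replicates 3 and 5, 5 without uncrushed replicates 3 and 5, and 6 to 9 without any 1 library.

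The steepest decreases included genes of excitability. Scn4b, a sodium channel beta subunit (Entrez 399548, chr9:45138624-45154155), stood at 3.18, 2.91, 2.85, 3.24 and 2.55 nRPKM in uncrushed and 0.494, 0.534, 0.867, 0.618 and 0.639 in crushed libraries (log2 change -2.22 ± 0.23, edgeR adjusted p = 1.03e-05). Ano3, of the anoctamin family, stood at 2.68, 2.48, 2.34, 2.89 and 2.04 in uncrushed and 0.548, 0.602, 0.757, 0.666 and 0.749 in crushed libraries (-1.90 ± 0.12, 3.68e-08). Ppp1r1c, a protein phosphatase inhibitor subunit, was low throughout, at 0.41, 0.323, 0.309, 0.332 and 0.267 in uncrushed and 0.029, 0.0452, 0.0417, 0.0461 and 0.0262 in crushed libraries (-3.11 ± 0.34, 1.74e-05). In all of them the highest crushed library stayed well under the lowest uncrushed one. For the lists that follow, 2.04% of all tested genes were called lower and 3.29% higher. Of 14 sodium channel genes 7 were called lower and 0 higher, with a median of -0.37, among them Scn1a, a pore-forming subunit (-0.80 ± 0.14, 0.00165). This count was 4 without crushed replicate 1, and also 4 without crushed replicates 3 and 5. Among 46 potassium channel genes 7 were called lower and 0 higher (median -0.15; 4 lower without the 4 libraries), such as Kcnip4 and Kcnd2, which form A-type channels (-0.95 ± 0.11, 3.93e-05, and -0.94 ± 0.15, 0.000686). Sptbn4, the spectrin that anchors channels at the axon initial segment, fell by 0.49 ± 0.06 (2.69e-05).

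Receptor, calcium and vesicle genes fell in part. Their counts stand against 2.04% called lower and 3.29% called higher of all tested genes. Chrna6, the nicotinic receptor subunit typical of ganglion cells, stood at 44.7, 41.6, 42.6, 46 and 32.6 nRPKM in uncrushed and 15.3, 15, 18, 16.2 and 16 in crushed libraries (log2 change -1.36 ± 0.14, edgeR adjusted p = 7.01e-06), and its partner Chrnb3 fell by 0.90 ± 0.12 (0.000146); these were the 2 called of 11 nicotinic receptor genes. Pvalb, the calcium buffer parvalbumin (Entrez 19293, chr15:78191112-78206400), stood at 16, 13.8, 19, 17.6 and 13.7 in uncrushed and 3.88, 4.61, 3.75, 3.74 and 3.78 in crushed libraries (-2.01 ± 0.15, 2.53e-07). Crushed replicate 2 was the highest of its group, at 4.61, and the other crushed values span 3.74 to 3.88. Of 19 calcium buffer and synuclein genes 9 were called lower and 0 higher (median -0.27), including Vsnl1 (-0.95 ± 0.13, 0.000137), Calb2, calretinin (-0.84 ± 0.13, 0.000421), and Ncs1 (-0.49 ± 0.08, 0.000907), while Sncb, beta-synuclein, was not (-0.17 ± 0.09, 0.425); 5 were called without the 4 libraries. Vamp1, a vesicle fusion protein of fast-firing neurons, stood at 35.8, 31.9, 36.2, 35.4 and 30.5 nRPKM in uncrushed and 10.7, 12.7, 12.3, 14.7 and 13.9 in crushed libraries (-1.40 ± 0.09, 5.58e-08). Cplx1, complexin 1, fell by 0.91 ± 0.10 (1.85e-05) and the widely expressed Snap25 by 0.36 ± 0.08 (0.00763; 0.0782 without the 4 libraries), whereas Syt1, a calcium sensor of vesicle release, was not called (0.03 ± 0.09, 0.952). In all, 8 of 40 vesicle genes were called lower and 0 higher, with a median of -0.06. That count was 4 without crushed replicates 3 and 5, 3 without the 4 libraries, and 5 without crushed replicate 1 or uncrushed replicate 4.

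Further decreases with no overlap between groups were Trarg1, a regulator of glucose transporter traffic (-1.86 ± 0.17, edgeR adjusted p = 3.05e-06), Fxyd7, a sodium pump regulator (-1.78 ± 0.15, 6.44e-07), Rasgrp2, a Rap activator (-1.59 ± 0.11, 1.79e-07), Sptssb, a subunit of serine palmitoyltransferase (-1.55 ± 0.16, 9.73e-06), and Itpka, an inositol trisphosphate kinase (-1.71 ± 0.24, 0.000253). Growth factor genes split: Fgf1 (-0.78 ± 0.09, 4.42e-05) and Fgf12, an intracellular FGF that binds sodium channels (-0.73 ± 0.11, 0.00036), fell, while Fgf2 rose. Matrix genes split as well: Hapln1, which links hyaluronan in perineuronal nets (-2.10 ± 0.22, 1.15e-05), and Mmp9, a gelatinase, at 6.52 to 8.75 nRPKM in uncrushed and 3.78 to 4.63 in crushed libraries (-0.96 ± 0.13, 0.000136), fell, and Timp1, a metalloprotease inhibitor (1.60 ± 0.32, 0.00475), and Adamts1, a matrix protease (0.97 ± 0.11, 3.15e-05), rose.

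Markers of the other retinal neurons gave 0 or 1 calls per list, near the 5.33% called of all tested genes. Of 20 rod, 20 bipolar and 19 amacrine cell genes edgeR called 0, with medians of -0.04, -0.04 and 0.02; at an unadjusted p under 0.05 there were 2, 2 and 0, and DESeq2 called 2, 0 and 0. Gnat1, with the levels given above, did not overlap between groups and was not called (-0.09 ± 0.08, edgeR adjusted p = 0.747). The rod bipolar kinase gene Prkca stood at 41.2 to 47.6 nRPKM in uncrushed and 36.7 to 51.7 in crushed libraries (0.975), and Gad1, the GABA-synthesising enzyme of amacrine cells, at 56.7 to 70 and 63.8 to 76.9 (0.966). Of 14 cone genes 1 was called, Gnb3, a G protein subunit that cones share with ON bipolar cells, at 148, 144, 161, 154 and 161 in uncrushed and 222, 217, 189, 192 and 197 in crushed libraries (0.41 ± 0.06, 0.000358), whereas the blue opsin gene Opn1sw was not (0.756). The horizontal cell list had 1 call of 10, Calb1, calbindin, which ganglion and amacrine cells also express (-0.37 ± 0.08, 0.0103; 0.0609 without crushed replicates 3 and 5 and 0.112 without the 4 libraries). Of 36 nuclear oxidative phosphorylation genes 0 were called by edgeR or DESeq2 (median -0.06), with 2 at an unadjusted p under 0.05.

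Genes of reactive glia and gp130 cytokine signalling rose. Lif, the cytokine that Müller glia release to protect photoreceptors, stood at 0.0891, 0.0718, 0.0838, 0.0528 and 0.0691 nRPKM in uncrushed and 0.379, 0.352, 0.22, 0.32 and 0.268 in crushed libraries (log2 change 2.07 ± 0.26, edgeR adjusted p = 7.33e-05). Osmr, a gp130 partner receptor, stood at 1.44, 1.18, 1.03, 1.01 and 1.03 in uncrushed and 3.31, 4.73, 2.59, 2.99 and 2.73 in crushed libraries (1.53 ± 0.17, 1.74e-05). Stat3, the transcription factor these receptors activate (Entrez 20848, chr11:100886806-100939594), stood at 13.2, 13.6, 12.1, 13.2 and 13.7 in uncrushed and 30, 36.2, 27.1, 27.6 and 25.8 in crushed libraries (1.16 ± 0.08, 1.79e-07). The groups were apart for each, and Stat3 was nearly constant among the uncrushed libraries. Gfap, the filament protein of reactive glia, stood at 9.05, 4.95, 4.7, 6.91 and 6.36 nRPKM in uncrushed and 25.5, 38.8, 20.4, 16.7 and 13.8 in crushed libraries (1.85 ± 0.24, 0.000101). Bcl3, an NF-kappaB cofactor, stood at 0.353, 0.273, 0.329, 0.382 and 0.299 in uncrushed and 3.94, 2.92, 1.38, 1.37 and 1.37 in crushed libraries (2.75 ± 0.31, 2.49e-05). Both were highest in crushed replicates 1 and 2, and the other crushed libraries still exceeded all uncrushed ones.

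Of 35 measured gliosis and gp130 genes 20 were called higher and 0 lower, against 3.29% and 2.04% of all tested genes. Their median was 0.75. The count of 20 was 15 without uncrushed replicates 3 and 5 and 22 without crushed replicates 3 and 5. The called genes include the secreted factors Fgf2, a survival factor for photoreceptors (1.61 ± 0.18, edgeR adjusted p = 1.99e-05), and Edn2, endothelin 2 (2.03 ± 0.23, 2.86e-05). Among 22 genes of Müller glia identity 2 were called, both higher (4 without crushed replicates 3 and 5, 1 without uncrushed replicates 3 and 5), of which Crym, a thyroid hormone-binding protein, was the larger (1.02 ± 0.14, 0.00017). Glul, glutamine synthetase, stood at 674 to 762 nRPKM in uncrushed and 552 to 620 in crushed libraries, with no overlap, and missed the threshold (-0.26 ± 0.07, 0.0528); DESeq2 (adjusted p = 0.00724) and edgeR on the 10 inhibitor libraries alone (0.0104) called it lower. The water channel gene Aqp4 was not called (0.811). Metallothioneins Mt1 (0.78 ± 0.17, 0.0103) and Mt2 (1.16 ± 0.21, 0.00187) rose, and 73.5% of the exon length of Mt2 lies under a gene on the opposite strand. The sterol regulator gene Insig1 fell (-0.42 ± 0.08, 0.00275).

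Interferon-stimulated genes gave the largest share of calls of any list. Of 52 measured, 47 were called higher and 0 lower, against 3.29% and 2.04% of all tested genes. All 52 had a change above 0, and the median was 1.32. The count of 47 was 39 without uncrushed replicates 3 and 5, 51 without crushed replicates 3 and 5, and 50 without the 4 libraries. Ifit1, which binds viral RNA, stood at 0.876, 0.692, 0.7, 0.849 and 0.644 nRPKM in uncrushed and 3.9, 4.86, 2.66, 11.6 and 1.68 in crushed replicates 1 to 5 (log2 change 2.71 ± 0.39, edgeR adjusted p = 0.000288). Oasl2, of the oligoadenylate synthetase family, stood at 2.93, 2.97, 2.71, 2.88 and 3.47 in uncrushed and 10.7, 10.3, 8.39, 30.1 and 6.02 in crushed libraries (2.13 ± 0.33, 0.000509). Gbp2, an interferon-inducible GTPase, stood at 1.12, 1.06, 0.814, 0.937 and 1.04 in uncrushed and 4.71, 5.04, 2.75, 6.95 and 3.09 in crushed libraries (2.18 ± 0.22, 8.14e-06). Crushed replicate 4 was highest in all of them and replicate 5 or 3 lowest, yet no crushed library fell into the uncrushed range. Without crushed replicate 4, 43 members were called, Ifit1 had a log2 change of 2.13 (adjusted p = 7.58e-05), Oasl2 of 1.57 (4.83e-05) and Usp18, the protease that removes ISG15, of 2.01 (0.000136; 2.68 with all libraries). Irf8, a factor of microglia and other myeloid cells, rose by 0.96 ± 0.14 (0.000356). Stat2 (0.37 ± 0.12, 0.0936) and Ifitm3 (1.13 ± 0.33, 0.0591) missed the threshold; both passed it without crushed replicate 3, among other settings.

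The interferon-stimulated response element, searched as GAAA and, after any 2 bases, GAAA again, on both strands of the same 250 bases, was found in 2.95% of the 13643 genes with a promoter entry, in 8.58% of 478 called higher and in 3.51% of 285 called lower. In the interferon list 17 of 37 genes with an entry held it, and 8 of the 37 held the AP-1 letters. In the antigen presentation list 3 of 21 held it, and in the gliosis and gp130 list 0 of 30. Promoters of Ifit1, Gbp2 and Bst2, the virion-tethering protein tetherin, are shown because these genes rose and hold the motif close to the start; matches are in capitals, and those of Bst2 overlap each other.
Ifit1, chr19:34640639-34640888, plus strand: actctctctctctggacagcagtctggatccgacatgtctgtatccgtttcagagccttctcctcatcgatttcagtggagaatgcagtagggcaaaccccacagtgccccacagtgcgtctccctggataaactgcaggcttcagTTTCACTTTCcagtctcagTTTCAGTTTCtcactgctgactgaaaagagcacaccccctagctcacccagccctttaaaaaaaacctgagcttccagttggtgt
Gbp2, chr3:142620413-142620662, plus strand: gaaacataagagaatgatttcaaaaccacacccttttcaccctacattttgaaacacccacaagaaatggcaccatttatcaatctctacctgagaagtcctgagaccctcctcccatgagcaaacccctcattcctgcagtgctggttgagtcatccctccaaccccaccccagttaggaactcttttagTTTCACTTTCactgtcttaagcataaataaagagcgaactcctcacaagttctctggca
Bst2, chr8:71537473-71537722, minus strand: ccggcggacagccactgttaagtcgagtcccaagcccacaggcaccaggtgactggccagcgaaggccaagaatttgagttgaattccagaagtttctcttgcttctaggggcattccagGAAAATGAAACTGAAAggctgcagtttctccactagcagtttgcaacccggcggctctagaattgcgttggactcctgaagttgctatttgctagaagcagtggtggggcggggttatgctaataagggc
The first match starts 104 bases before the start of Ifit1, 59 before that of Gbp2 and 130 before that of Bst2. These windows were read from RefSeq, build GRCm38.p6, and a match is neither a binding site nor a cause.

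Genes of class I antigen presentation followed. Nlrc5, the transactivator of class I genes, rose by 2.46 ± 0.29 (edgeR adjusted p = 4.35e-05), the nonclassical H2-T23 by 1.53 ± 0.26 (0.00127), the immunoproteasome subunit gene Psmb8 by 1.14 ± 0.20 (0.00149) and the peptide transporter gene Tap1 by 1.07 ± 0.20 (0.00239). B2m, the light chain of class I molecules, stood at 40.7, 23.3, 27.4, 24.4 and 25.3 nRPKM in uncrushed and 71.5, 59.3, 42.2, 71 and 36.7 in crushed libraries (1.00 ± 0.18, 0.00221). Uncrushed replicate 1, at 40.7, overlapped with crushed replicate 5, at 36.7. Of 26 genes of the whole antigen presentation list 12 were called higher and 0 lower, against 3.29% and 2.04% of all tested genes. The median was 0.45, and these counts were not split by MHC class. H2-Q4 rose as well (1.47 ± 0.19, 7.84e-05); reads of such near-identical class I genes can be lost where only unique alignments are counted.

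Microglial transcripts rose. C1qb, a chain of complement C1q made by microglia, stood at 6.67, 3.74, 5.34, 4.44 and 4.19 nRPKM in uncrushed and 15.7, 13.5, 8.99, 11.4 and 7.57 in crushed libraries (log2 change 1.23 ± 0.18, edgeR adjusted p = 0.000393). Tmem119, a microglia-specific membrane protein, stood at 0.883, 0.83, 0.816, 0.694 and 0.827 in uncrushed and 1.94, 2.12, 1.56, 1.71 and 1 in crushed libraries (1.04 ± 0.17, 0.000675). The groups did not overlap, and crushed replicates 1 and 2 were again highest. Of 24 microglial genes 18 were called higher and 0 lower, against 3.29% and 2.04% of all tested genes. Not all 24 are specific to the resting state. All 24 had a change above 0, and the median was 0.78 (12 called without uncrushed replicates 3 and 5). The list does not separate a change of state from a change in the number of microglia. Cx3cr1, the fractalkine receptor (1.05 ± 0.18, 0.0012), and Aif1, which encodes Iba1 (1.59 ± 0.26, 0.00092), were among the called genes. Tyrobp (0.78 ± 0.23, 0.0558), P2ry12 (0.58 ± 0.17, 0.0673) and Mertk (0.09 ± 0.08, 0.758) were not called; DESeq2 called Tyrobp and P2ry12, as did 6 and 5 other settings (adjusted p of 0.00377 to 0.0473 and 0.00412 to 0.0424). Of 32 activation genes 11 were called higher and 0 lower, such as the lysosomal Cd68 (1.62 ± 0.23, 0.000274) and galectin 3, Lgals3 (1.43 ± 0.22, 0.000596). That count was 7 without crushed replicate 1 or 2, and 6 without uncrushed replicates 3 and 5. In complement, 7 of 18 genes were called higher, C4b among them (1.63 ± 0.27, 0.000876).

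Of 20 chemokine and cytokine genes 7 were called higher, against 3.29% of all tested genes, and 13 were not called. Their median was 0.30, and 4 were called without crushed replicate 2. Cxcl10, an interferon-induced chemokine, stood at 0.0466, 0.036, 0.0606, 0.0212 and 0.147 nRPKM in uncrushed and 1.08, 2.01, 1.16, 2.36 and 1.25 in crushed libraries (log2 change 4.66 ± 0.44, edgeR adjusted p = 4.14e-06). Ccl12, a monocyte attractant, stood at 0, 0, 0.0415, 0.087 and 0 in uncrushed and 1.16, 1.89, 0.292, 1.17 and 0.48 in crushed libraries (4.98 ± 0.71, 0.000258). Such low uncrushed values rest on a few reads, so the size of these changes is uncertain. Ccl5 rose by 2.14 ± 0.38 (0.00178), and Csf1, the growth factor of microglia, by 0.91 ± 0.13 (0.000302). Markers of blood-derived leukocytes showed 0 calls by edgeR or DESeq2 among 10 measured of 21 listed (1 at an unadjusted p under 0.05), with a summed level of 2.84 to 6.48 CPM in uncrushed and 4.71 to 6.58 in crushed libraries; Mrc1 and F13a1, of border macrophages and monocytes, overlapped between groups (0.819 and 0.765). Of 42 cell cycle genes 9 were called higher and 0 lower, 5 without crushed replicate 1 or 2, and 4 without uncrushed replicates 3 and 5. Top2a, a topoisomerase of dividing cells, stood at 0.0392, 0.019, 0.0212, 0.0178 and 0.0258 nRPKM in uncrushed and 0.208, 0.239, 0.0997, 0.215 and 0.116 in crushed libraries (2.83 ± 0.37, 0.000124), and Mki67 rose by 3.06 ± 0.48 (0.000568).

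The crushed retinas were not alike in all of these groups, and neither were the uncrushed ones. For each list, the mean log2(CPM + 0.5) of its members in a library was set against the mean of the 5 uncrushed libraries. Ganglion cell markers were lower by a similar amount in every crushed library, with shifts of -0.60, -0.45, -0.55, -0.63 and -0.61 in replicates 1 to 5, while the uncrushed ranged from -0.20 to 0.12. Axon injury genes shifted by 1.04, 1.08, 0.69, 0.75 and 0.76. Gliosis and gp130 genes shifted by 1.09, 1.09, 0.57, 0.66 and 0.51, and the microglial list with resting-state markers by 1.06, 1.00, 0.45, 0.71 and 0.39. Crushed replicates 1 and 2 were thus ahead in injury, glial and microglial genes. Uncrushed libraries ranged from -0.09 to 0.09 in these injury genes, -0.17 to 0.25 in the glial and -0.12 to 0.28 in the microglial list. Uncrushed replicate 1 was the highest of its group in each. Interferon-stimulated genes shifted by 1.07, 1.2, 0.73, 1.98 and 0.50 in crushed replicates 1 to 5, with replicate 4 ahead by far. Antigen presentation genes shifted by 0.76, 0.65, 0.34, 0.76 and 0.24. In the uncrushed libraries these lists ranged from -0.10 to 0.17 and from -0.19 to 0.28, again highest in uncrushed replicate 1. Crushed replicates 3 and 5, which hold the keratin transcripts, had the smallest shifts in the glial, microglial and interferon lists but not in ganglion cell markers. A part of those tissues in this was not tested.

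**Figure D4:**
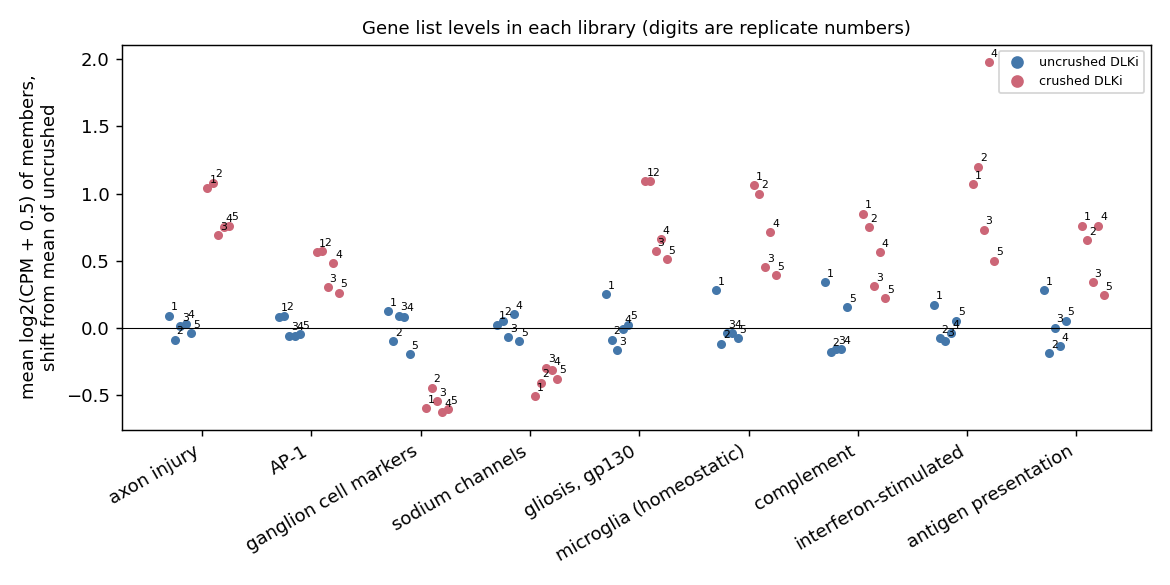
Mean log2(CPM + 0.5) of the measured members of 9 gene lists in each inhibitor library, as the shift from the mean of the 5 uncrushed libraries (y axis), blue for uncrushed and red for crushed, with replicate numbers beside the points. Ganglion cell markers are shifted by -0.63 to -0.45 in all crushed libraries, while interferon-stimulated genes range from 0.50 in replicate 5 to 1.98 in replicate 4.

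Set beside the vehicle retinas, the response had largely the same direction. The inhibitor was given only at 60 h and 68 h after the crush, so the response up to 60 h ran without it. With vehicle 510 genes (2.63%) were called, in groups of 3 against 3, so the counts of the responses are not comparable. The comparisons share no library, but the spread used for both came from 1 fit of all 16 libraries. The vehicle libraries held 22.35 to 38.63 M counts, with 2.25% to 4.539% from mitochondrial genes. Uncrushed vehicle replicate 1 had the lowest count and the highest mitochondrial share. Of the 1034 genes called with the inhibitor, 1016 had the same sign with vehicle. The share of equal signs over all tested genes was not counted. In both comparisons 413 genes were called, which is 39.9% of the inhibitor calls and 81.0% of the vehicle calls. The difference of the responses was tested directly. An unadjusted p under 0.05 was reached by 298 of 19391 genes, less than the share of 0.05 expected with no true difference. The edgeR test of the difference may therefore miss true differences. It called 2 genes (0.0103%), both rising less with the inhibitor, and DESeq2 called 5. Besides these 2, DESeq2 called Chac1, a glutathione-degrading enzyme (-1.39, adjusted p = 9.47e-05), and Stbd1, a glycogen-binding protein (-0.90, 0.0286), which were lower in the inhibitor response, and Isl2 (1.13, 0.03), which fell less; these 3 are named after their values were seen. Gm13889, a gene model without an assigned function (Entrez 620695, chr2:93955810-93957100; 20.8% of its exon length is shared with the model Gm27027), stood at 17.7, 17.3, 19.9, 17.4 and 16.9 nRPKM in uncrushed and 34.4, 34.1, 26.8, 32.8 and 29.6 in crushed inhibitor libraries (log2 change 0.83 ± 0.10, adjusted p = 6.74e-05). In vehicle retinas it went from 14.1 ± 3.36 to 64.3 ± 5.3 nRPKM (SD, 3 libraries each; 2.18 ± 0.14). The difference was -1.35 ± 0.17 (edgeR adjusted p = 0.00551) and stayed called in all 16 fits without 1 library, though not without the 4 libraries (0.195). Among those 16 fits it was smallest, at -1.19, without uncrushed vehicle replicate 1.

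Adcyap1, which encodes the neuroprotective peptide PACAP (Entrez 11516, chr17:93198245-93206541), stood at 0.844, 0.792, 0.795, 0.885 and 0.778 nRPKM in uncrushed and 1.27, 1.74, 1.28, 1.37 and 1.19 in crushed inhibitor libraries, again without overlap (log2 change 0.75 ± 0.12, edgeR adjusted p = 0.000565). With vehicle it went from 0.666 ± 0.142 to 2.68 ± 0.28 nRPKM (1.99 ± 0.15). The difference of -1.24 ± 0.19 (edgeR adjusted p = 0.0454) held its sign in all 16 fits without 1 library, between -1.38 and -1.10, but its call was left only without crushed inhibitor replicate 2 or uncrushed vehicle replicate 2 (adjusted p up to 0.263 in the others). It was not called either without crushed replicates 3 and 5 (0.398), without uncrushed replicates 3 and 5 (0.117), or without the 4 libraries (0.731). The difference of -1.10 was that without uncrushed vehicle replicate 1 (edgeR adjusted p = 0.112).

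For the other injury genes below edgeR did not call the difference, and the changes stood side by side as follows. Sprr1a changed by 7.22 ± 0.32 with inhibitor and 7.25 ± 0.39 with vehicle, Ecel1 by 6.02 ± 0.20 and 5.97 ± 0.27, and Hrk by 3.47 ± 0.12 and 3.21 ± 0.15. The size for Sprr1a is uncertain, as its uncrushed inhibitor values rest on few reads. Atf3 changed by 2.01 ± 0.16 and 2.78 ± 0.21 (difference -0.77 ± 0.26), Sox11 by 2.32 ± 0.18 and 3.09 ± 0.23 (-0.76 ± 0.28), and Cdkn1a by 1.21 ± 0.12 and 1.87 ± 0.16 (-0.66 ± 0.20), each with an adjusted p of 1 for the difference. Isl2 changed by -0.57 ± 0.15 and -1.70 ± 0.21 (1.13 ± 0.25; edgeR adjusted p of 1, DESeq2 0.03). Of the 52 interferon-stimulated genes 8 were called with vehicle by edgeR and 16 by DESeq2. There 45 had an unadjusted p under 0.05, and the median change was 0.96. Among them 0 differences were called by edgeR or DESeq2, and 1 had an unadjusted edgeR p under 0.05. Some other lists held more at that p. They were 7 of 32 stress response and amino acid genes, 6 of 33 ganglion cell factors and 5 of 41 axon injury genes. Their medians with inhibitor and vehicle were 0.24 and 0.47, -0.27 and -0.41, and 0.61 and 0.74. The rod, bipolar and amacrine lists held 0, 1 and 0, and all tested genes 298 of 19391. These lists were picked after their values were seen. Krt5 changed by 4.84 ± 1.10 with inhibitor and -1.05 ± 2.19 with vehicle, and Cryaa by -4.52 ± 1.24 and -4.04 ± 1.66, with wide errors. An adjusted p above the threshold does not show that the responses were alike.

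**Figure D5:**
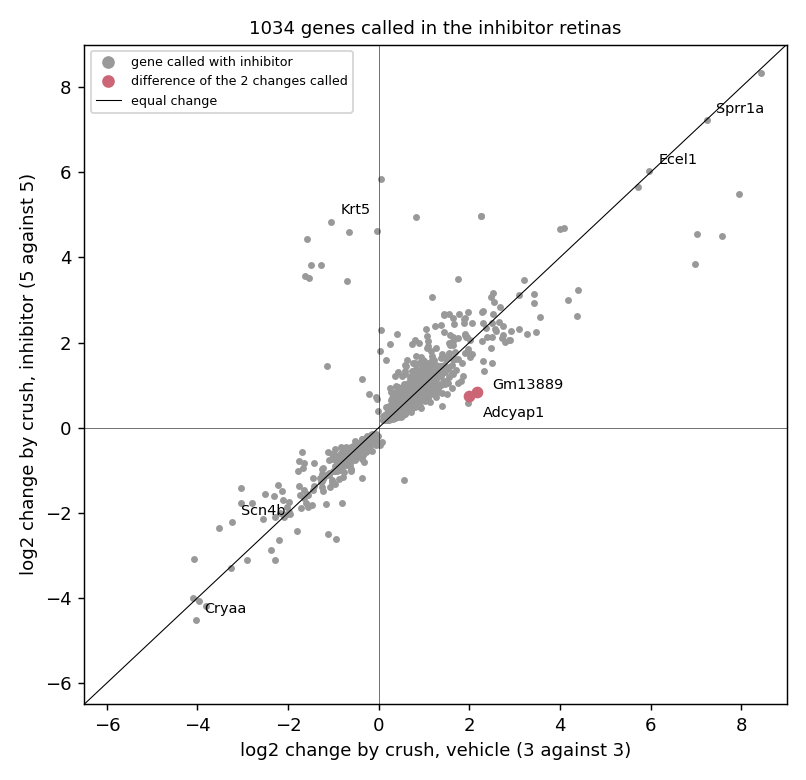
log2 change by crush in vehicle retinas (x axis, 3 against 3 libraries) and in inhibitor retinas (y axis, 5 against 5) for the 1034 genes called with the inhibitor, with the line of equal change. Of these points 1016 lie in the quadrants of equal sign; Gm13889 and Adcyap1, in red, lie below the line, and Krt5 lies among a small group that is above 3 with the inhibitor and below 0 with vehicle.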

How the data were processed

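Per the file headers, the deposited counts are reads with a unique alignment to a gene model, and the deposited nRPKM values are the authors' RPKM adjusted with a size factor. Genes carry Entrez identifiers. Per the submitters' processing notes the aligner was GSNAP and the build GRCm38; their versions and the annotation used were not given in the sources used here. Per the labels' protocols, 0.5 µg RNA went into TruSeq v2 libraries, a kit that does not mark strand, read as 50-base single reads.

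Of the 36528 identifiers, 31049 matched a RefSeq symbol. The test was run in edgeR 4.0.16 (R 4.3.3; TMM factors, filterByExpr over 4 groups, quasi-likelihood F test, two-sided) on all 16 libraries with 1 mean per group, 12 residual and 5.27 prior degrees of freedom, and adjusted over 19391 genes. The SE is the log2 change divided by the square root of F. nRPKM served only to show levels. Replicates were not copies of one another.

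The comparison, 57 gene lists and the naming rule were chosen with earlier results of these data known. Named were Map3k12 and Map3k13, the 25 largest called increases and decreases with a mean of at least 1 CPM, up to 8 called and 3 uncalled members per list, and genes called for the difference. Text genes were checked for exon overlap in GENCODE M21 (GRCm38): 4 of 163 had over 25% overlapped. Some genes that the rule named are not reported here. Alternatives were size factors by RLE, DESeq2 1.42.0, no filter, the inhibitor libraries alone, a 1.5-fold test and leaving out each library. Fits without the libraries rich in keratin or lens transcripts were added after the data were seen.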

Additional observations from a re-analysis of the deposited data

Results flagged for a closer look

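Single libraries stood far from the other 4 of their group for some genes of the lists (a gap of more than 0.71 of the group's range, which chance alone gives in about 1 in 20 groups). As 163 genes were checked in both inhibitor groups, many of these flags can be due to chance. In crushed replicate 4 the flagged highest values were of interferon-related genes: Usp18 at 9.4 nRPKM (next 3.12), Rsad2 at 1.97 (0.802), Nlrc5 at 0.721 (0.344), Oasl2 at 30.1 (10.7) and Stat2 at 15.1 (10.2). In crushed replicate 5 they were Krt13 at 9.68 (2.05) and Krt15 at 20.5 (2.52), with Cdsn lowest there at 0.852 (1.04).

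Crushed replicate 2 was highest for the injury genes Avil at 1.92 nRPKM (next 1.48), Ptgfr at 0.962 (0.44) and Prss12 at 0.968 (0.701), for Adamts1 at 10.2 (8.51) and for Pvalb at 4.61 (3.88). Crushed replicate 4 was lowest for Rxrg at 1.92 (2.3). Among the uncrushed libraries, replicate 2 was lowest for Mmp12 at 0.0323 (0.0785) and highest for Ptgfr at 0.144 (0.0814), Atf3 at 2.58 (2.22) and Nts at 0.0159 (0). Uncrushed replicate 1 was highest for Ccl4 at 0.0389 (0), Ccl5 at 0.338 (0.175) and B2m at 40.7 (27.4), replicate 3 for Gm13889 at 19.9 (17.7) and replicate 5 for Mki67 at 0.0213 (0.0102). Uncrushed replicate 5 was lowest for Mapk10 at 11.8 (13.3) and for the amacrine gene Gad1 at 56.7 (68.7).

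The response of 2 genes differed between inhibitor and vehicle retinas by a test of the difference itself: Adcyap1 by -1.24 and Gm13889 by -1.35 on the log2 scale (edgeR interaction contrast, given above).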

How the results depend on the processing

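No paired analysis was possible because the number in each title belongs to 1 library and the labels do not tie retinas to animals. The title numbers of the inhibitor libraries alternate between crushed and uncrushed eyes. Crushed replicates 1, 2, 3, 4 and 5 stand directly before uncrushed replicates 1, 4, 3, 2 and 5 in them. Whether neighbours share a mouse is not stated. For the crush effect with inhibitor, 1034 genes were called. The test against a change of at most 1.5-fold called 166, and leaving out the 4 libraries with most keratin or lens transcripts called 661, of which 613 were among the 1034 (the first asks for a larger change, the second has fewer samples). Leaving out 1 library each called 748 to 1002. The share of higher calls was 61.7%, and 51.3% with the 10 inhibitor libraries fitted alone (616 higher, 585 lower) and 72.6% without the 4 libraries. DESeq2 called 1317, of which 1023 were among the 1034, and RLE 1028. For the crush effect with vehicle, 510 genes were called, and 499 to 720 under the other settings run. For the difference of the responses, 2 genes were called; DESeq2 called 5, 1 was left without crushed replicates 3 and 5, 1 without uncrushed replicates 3 and 5, and 0 without all 4. Leaving out 1 library each left 1 to 2. Of 136 called genes followed one by one, 67 stayed called in every setting, and no called gene changed sign in any. The 1.5-fold test, by its construction, ended the other 69 calls; where another setting ended one of them too, the cause was not tested. Depth was 32.2 M counts or more per inhibitor library, so genes under about 0.1 nRPKM rest on few reads.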

Other observations

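Some genes that rose were not described above. Tnfrsf1a, the main receptor of TNF, stood at 5.36, 3.42, 3.73, 4.08 and 4.58 nRPKM in uncrushed and 9.52, 10.2, 6.43, 6.97 and 5.47 in crushed replicates 1 to 5 (log2 change 0.87 ± 0.15, edgeR adjusted p = 0.00162), with no overlap and with crushed replicates 1 and 2 highest. Myc, a growth-promoting transcription factor, stood at 0.332, 0.331, 0.306, 0.292 and 0.259 in uncrushed and 0.583, 0.836, 0.5, 0.536 and 0.458 in crushed libraries (0.94 ± 0.17, 0.00206), also without overlap. Icam1, an adhesion molecule of vessels and glia, rose by 0.93 ± 0.18 (0.003), and Trim30a, an interferon-induced regulator of inflammation, by 2.38 ± 0.33 (0.000217). Map3k13, which encodes the DLK-related kinase LZK, stood at 4.64 to 5.64 nRPKM in uncrushed and 4.61 to 5.75 in crushed libraries and was not called (0.94).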
